A study of Homo sapiens with 12 samples.

Results

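The genes that encode the proteins of the cytosolic ribosome were followed in MiaPaCa-2, a long-established cell line from a human pancreatic cancer, after small interfering RNA (siRNA) transfection. They were chosen by symbol alone: protein-coding rows named RPL or RPS with a number, RPSA and the stalk genes RPLP0, RPLP1 and RPLP2, without the kinases named RPS6K. The rule found 86 of the 70116 rows of the count table. Of these, 46 encode proteins of the large subunit, 31 proteins of the small subunit and 9 paralogues. Paralogues are extra copies, some of which can stand in for a standard ribosomal protein. After a filter on low counts, 76 of the 86 were tested: 45 of the large subunit, 27 of the small subunit and 4 paralogues. The 4 groups of 3 libraries were siControl, siSLC25A1, siACLY and siACO1. SLC25A1 encodes the mitochondrial citrate carrier, ACLY the enzyme that cleaves cytosolic citrate to acetyl-CoA, and ACO1 the cytosolic aconitase that can bind iron-responsive elements. All groups were grown in the supplier's medium and transfected, and the RNA was selected by its poly(A) tail. The labels give no time after transfection, no siRNA sequences and no nutrient condition, and they do not say whether replicates were separate cultures, so p-values measure only the spread between these libraries.

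Ribosomal proteins are made in balanced amounts and assembled with ribosomal RNA in the nucleolus, and a growing cell spends a large share of its transcripts on them. Most of their messenger RNAs begin with a C followed by an unbroken stretch of pyrimidines, the terminal oligopyrimidine (TOP) motif. Through this motif the kinase mTORC1 and the RNA-binding protein LARP1 set how strongly these transcripts are translated and how stable they are. Synthesis of ribosomal proteins is thereby tied to nutrient supply, and transcript levels as measured here show neither translation nor protein.

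The starts of the transcripts on which the results below turn are shown as RefSeq places them on GRCh38.p14, from 10 bases before to 20 bases from the annotated first base, 5′ to 3′ on the gene's own strand. Capitals mark the unbroken run of C and T from the first base. RPL12, RPL18, RPSA and RPS3 are shown because they were among the largest falls in siACO1, RPL13A and RPS16 because they were among the largest in siSLC25A1, and RPLP2 because it fell most in siACLY. RPL22L1 is set beside its partner RPL22 because it was called higher than control in siACLY, and RPS27L beside RPS27 because it was in siACO1. No paralogue was tested against its partner.
RPL12 (chr9:127451387-127451416, minus strand): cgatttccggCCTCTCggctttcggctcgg
RPL18 (chr19:48619159-48619188, minus strand): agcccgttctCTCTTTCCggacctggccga
RPSA (chr3:39406710-39406739, plus strand): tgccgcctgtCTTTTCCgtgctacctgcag
RPS3 (chr11:75399508-75399537, plus strand): cgagccacttCCTTTCCTTTCagcggagcg
RPL13A (chr19:49487598-49487627, plus strand): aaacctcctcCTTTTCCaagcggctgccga
RPS16 (chr19:39435930-39435959, minus strand): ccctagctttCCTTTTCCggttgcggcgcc
RPLP2 (chr11:809957-809986, plus strand): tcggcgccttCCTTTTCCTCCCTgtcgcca
RPL22 (chr1:6199576-6199605, minus strand): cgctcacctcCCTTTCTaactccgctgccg
RPL22L1 (chr3:170870176-170870205, minus strand): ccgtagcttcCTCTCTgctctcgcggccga
RPS27 (chr1:153990752-153990781, plus strand): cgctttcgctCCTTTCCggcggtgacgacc
RPS27L (chr15:63157458-63157487, minus strand): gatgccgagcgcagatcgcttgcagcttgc
A TOP-like start was counted where any annotated start of a gene was a C followed by at least 4 bases that were each C or T. This was searched only on the gene's own strand and only at the annotated first base. Of the 69 genes of the rule with a RefSeq entry, 48 (69.6%) had such a start. Without the paralogues it was 46 of 62 (74.2%), and among the paralogues 2 of 7. Across all 27305 genes with an entry it was 1404 (5.14%), and among genes of mitochondrial ribosomal proteins 6 of 69 (8.70%). Genes with no entry included RPL23, RPL23A, RPL30, RPL37, RPL39L, RPL3L, RPL5, RPL7, RPL8, RPS15A, RPS2 and RPS20. A match of letters is a description of the sequence and not of its use.

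Library totals ran from 24159424 to 43792811 counts. Each targeted transcript was low where it was targeted: SLC25A1 was at 8.75% of control, ACLY at 7.24% and ACO1 at 3.72%. The epithelial keratins KRT8, KRT18 and KRT19 and the mesenchymal marker VIM were expressed, while the epithelial markers EPCAM and CDH1, PTPRC of leukocytes, DCN of fibroblasts and PRSS1 and CPA1 of acinar cells lay between 0 and 0.0775 CPM (counts scaled to equal library size), PECAM1 of endothelial cells at up to 0.157 CPM and COL1A1 of fibroblasts at up to 0.250 CPM. In siACO1, KRT8 and KRT18 stood at 56.2% and 58.4% of control, and the part of this shift in the results below was not tested. The library siACO1 replicate 3 stood apart from its replicates. Over ribosomal protein genes its median log2 difference from the mean of replicates 1 and 2 was 0.26, over 908 other genes with transcripts of at most 1000 bases it was 0.17, and over 10923 longer genes it was -0.00. The counts and main values for siACO1 against siControl are therefore given with and without it.

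Of the 10 untested genes, the paralogues RPL39L, RPL3L and RPL10L had no count in any of the 12 libraries, and 2 lie on the Y chromosome and are counted here without their levels. The others encode standard ribosomal proteins and were almost empty over the 12 libraries together: among them RPS3A had 3 counts, RPS18 20, RPS25 20 and RPL7A 34. RPS2 was tested but had 82 counts in all. Rows named as their processed copies, which are pseudogenes made by reverse transcription and nearly identical in sequence, held almost all counts of several families. Copies of RPS2 had 112678 counts, or 99.9% of gene and copies together, copies of RPL7A 4456 (99.2%), copies of RPS18 3787 (99.5%) and copies of RPS3A 3636 (99.9%), while those of RPS25 had 9 counts. Copies also held 58.0% of the counts for RPL36A, 57.7% for RPS10 and 36.5% for RPL17. Levels of these genes in the table are therefore not read as their expression, and how reads were assigned between a gene and its copies was not tested. Over all families, the 1601 copy rows held between 0.0800% and 0.100% of a library's counts. Of the 76 tested genes, 40 shared at least 20% of their exon bases with another gene or at least 20% of their 31-base stretches with transcripts elsewhere, and their single values carry that uncertainty.

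Levels of different genes were compared in siControl, per kilobase of transcript. Identifiers are those of the count table, and positions come from GENCODE 29 (GRCh38) and need not match the annotation used for counting. RPS3 (ENSG00000149273.15, chr11:75399486-75422280, plus strand), which lines the channel where messenger RNA enters, was highest at 2238 ± 38.2 CPM per kilobase (SD, n = 3). RPL12 (ENSG00000197958.13, chr9:127447674-127451405, minus strand), which sits at the base of the stalk that recruits elongation factors, followed at 2154 ± 12.6, and RPL35 and RPL8 at 2065 ± 63.6 and 2027 ± 70.5. The gaps between RPL12, RPL35 and RPL8 were smaller than 2 SD of the more variable neighbour, so their order is not resolved, and RPL13A at 1862 ± 8.95 and RPLP1 at 1852 ± 20.3 CPM per kilobase lay below them. At the low end of the genes above 1 CPM stood RPS10 at 6.72 ± 0.923, RPS9 at 8.75 ± 0.738, RPL22L1 at 19.8 ± 0.677, RPL36A at 19.8 ± 0.977 and RPS27L at 25.8 ± 0.799 CPM per kilobase. RPL22L1 and RPS27L are paralogues, while the values of RPS10 and RPL36A, as said above, are only those of the rows that bear their names. RPS9 encodes a standard ribosomal protein, and its row lay far below the median of 936 CPM per kilobase over the tested ribosomal protein genes. Its 1 named copy held 0 counts. Whether the row of RPS9 shows the expression of the gene was not tested.

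The ribosomal protein genes together took a smaller share of each knockdown library than of the control libraries. In siControl they held 5.62%, 5.53% and 5.52% of all counts (5.55% ± 0.0543, SD, n = 3). The siSLC25A1 libraries held 4.78%, 4.91% and 4.75% (4.81% ± 0.0837), the siACLY libraries 5.08%, 5.12% and 5.42% (5.21% ± 0.185), and the siACO1 libraries 4.73%, 4.73% and 5.47% (4.98% ± 0.426). No library of any knockdown reached the lowest control library, and siACO1 replicate 3 and siACLY replicate 3 came nearest to it. Relative to siControl the mean share was 86.7% in siSLC25A1, 93.7% in siACLY and 89.6% in siACO1, and siACO1 replicates 1 and 2 alone had a mean share of 4.73%. The share is relative to all other transcripts, and fewer cells or less RNA per cell cannot be told apart from it.

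**Figure D1:**
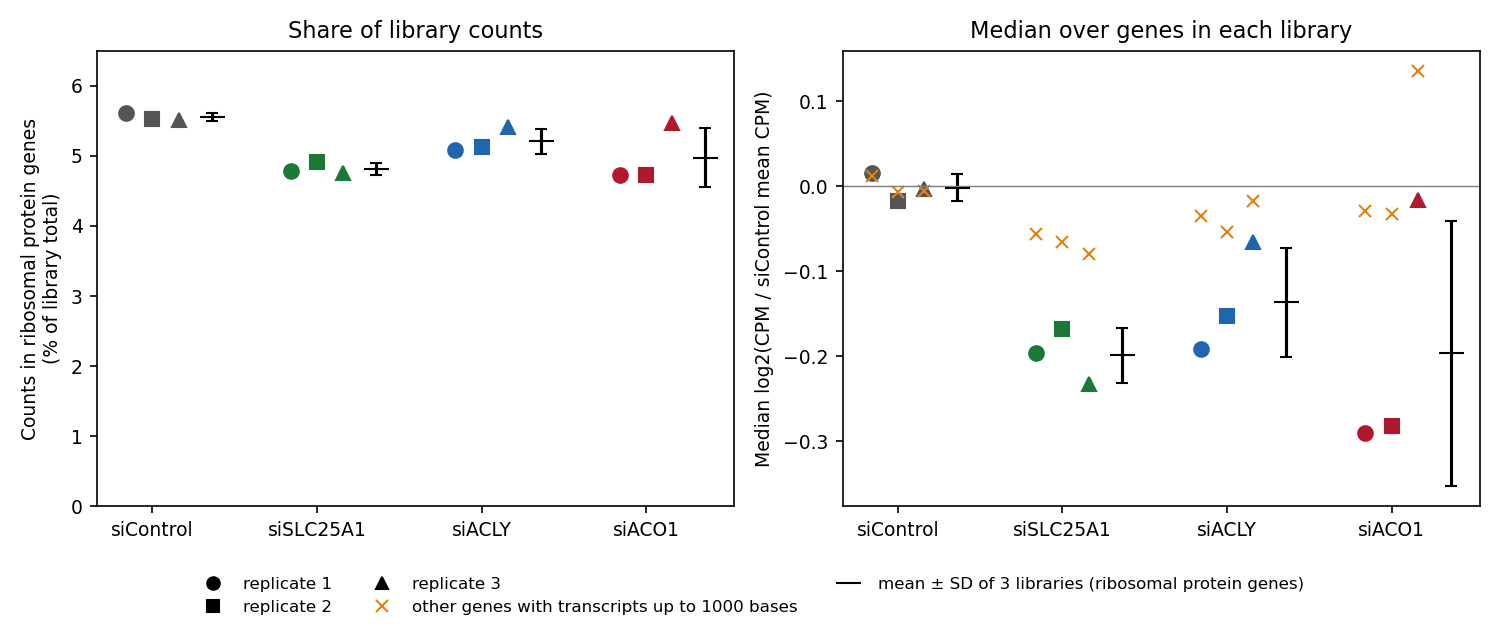
Left, the share of each library's counts in ribosomal protein genes (%, axis from 0); right, the median over tested ribosomal protein genes of log2 CPM relative to the siControl mean (filled symbols) and over other genes with transcripts of at most 1000 bases (crosses). Symbols are libraries and black bars are mean ± SD of 3 libraries for the ribosomal protein genes; siSLC25A1 lies between -0.17 and -0.23, siACO1 replicates 1 and 2 at -0.29 and -0.28, and siACO1 replicate 3 at -0.02 while its other short genes lie at 0.14.

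Gene by gene, the differences were small and mostly in 1 direction. A gene was called when its adjusted p from edgeR's quasi-likelihood test with Benjamini-Hochberg adjustment over all 16197 tested genes was under 0.05. After SLC25A1 knockdown, 43 of 76 tested ribosomal protein genes fell and 2 rose (9.27% of all tested genes were called lower, 10.3% higher and 19.6% in either direction), with a median log2 fold change of -0.20 against -0.00 over all genes. After ACLY knockdown 27 fell and 1 rose (18.3% and 18.4% of all genes, 36.7% together), with a median of -0.13 against 0.01. After ACO1 knockdown 37 fell and 2 rose (19.3% and 17.8% of all genes, 37.1% together), with a median of -0.18 against 0.01. With siACO1 replicate 3 left out, 58 fell and 1 rose, with a median of -0.29. That fit also raised the count of falls to 59 in siSLC25A1 and 50 in siACLY. Neither of these comparisons holds a siACO1 library. All groups share a common estimate of the spread, however, and siACO1 replicate 3 enters their tests through it. The shares of all genes given above are of the fit to 12 libraries and do not apply to it. The 3 comparisons share the siControl libraries and are not independent of each other. Other genes with transcripts of at most 1000 bases had medians of -0.06, -0.04 and 0.03 in siSLC25A1, siACLY and siACO1. The ribosomal protein transcripts are themselves short, with a median length of 757 bases against 2570.5 for other protein-coding genes.

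**Figure D2:**
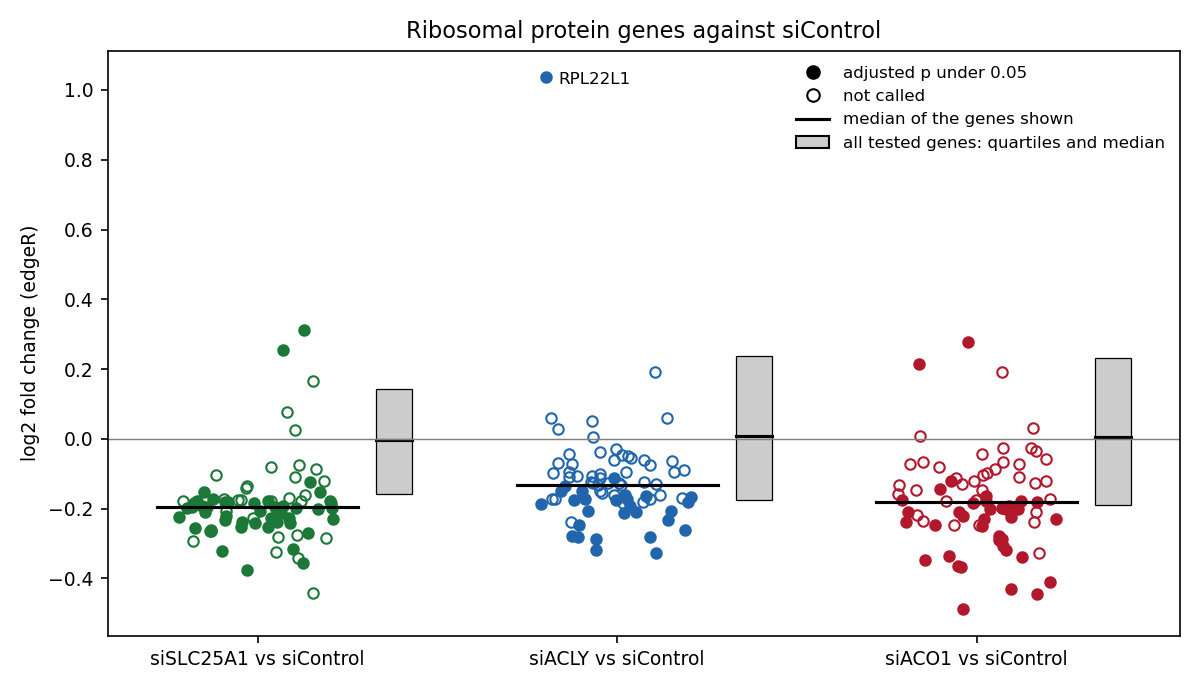
Each point is the log2 fold change of a tested ribosomal protein gene against siControl (RPS2, at under 1 CPM, is left out); filled points have an adjusted p under 0.05, black lines are medians of the points, and grey boxes give the quartiles and median of all 16197 tested genes. Most points lie between 0 and -0.4 in each knockdown, and RPL22L1 in siACLY stands alone at 1.04.

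SLC25A1 knockdown lowered genes of both subunits. Every siSLC25A1 library lay below every siControl library for 67 of the 76 genes and above for 3 (18.7% and 18.4% of all tested genes). Among the largest falls were those of RPL13A, RPS16, RPL41, RPL8 and RPS23. RPL13A (ENSG00000142541.18, chr19:49487554-49492308, plus strand), a large subunit protein that also serves in the interferon-gamma-dependent silencing complex and is often used as a reference gene, was at 2134, 2115 and 2117 CPM in the siControl libraries and at 1617, 1661 and 1626 in siSLC25A1. The groups were well apart, and the gene fell to 77.0% of control (log2 fold change -0.38 with SE 0.05, adjusted p 5.04e-06). RPS16 (ENSG00000105193.9, chr19:39433207-39435948, minus strand), whose tail reaches the transfer RNA in the peptidyl site, was at 909.7, 887 and 913 CPM in siControl and at 719.6, 752 and 696 in siSLC25A1 (log2 fold change -0.32 with SE 0.05, adjusted p 3.5e-05). Both calls held in all 22 alternative settings, which were other scalings, filters and sets of libraries, DESeq2, a replicate block, a correction for transcript length, the addition of processed copies, and the omission of each library in turn.

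RPL8, a protein close to the peptidyl transferase centre, fell from 2006 ± 69.8 to 1665 ± 27.2 CPM (log2 fold change -0.27 with SE 0.06, adjusted p 0.00448). RPS23, a protein of the decoding centre, fell from 399.8 ± 12.8 to 333 ± 5.12 CPM (log2 fold change -0.26 with SE 0.08, adjusted p 0.0291). RPL41, which encodes the shortest ribosomal protein, fell from 400.4 ± 7.48 to 322 ± 25.1 CPM (log2 fold change -0.32 with SE 0.09, adjusted p 0.0399). The 3 changes were of like size, but the calls differed in how firm they were. That of RPL8 was lost only without siSLC25A1 replicate 1, while those of RPS23 and RPL41 held in 17 of 22 and 14 of 22 settings, RPL41 being lost with a correction for transcript length (-0.25, adjusted p 0.0678) and with a replicate block (-0.32, adjusted p 0.0576). Each lost its call without siControl replicate 1 or 2 and without siSLC25A1 replicate 1 or 3, RPS23 also without siSLC25A1 replicate 2, and RPL41 also without siControl replicate 3 or siACLY replicate 2.

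The 2 genes that rose in siSLC25A1 had rows at low levels, and whether these rows show the expression of the genes was not tested. RPS9 (ENSG00000170889.14, chr19:54200742-54249003, plus strand), of the small subunit, was at 6.33, 7.40 and 6.54 CPM in siControl and 7.84, 8.40 and 8.99 in siSLC25A1, with no overlap (log2 fold change 0.31 with SE 0.11, adjusted p 0.0391). Its call held in 16 of 22 settings and was lost in DESeq2, without a filter on low counts, and without siControl replicate 1 or 3 or siSLC25A1 replicate 2 or 3. RPL36A (ENSG00000241343.10, chrX:101390824-101396154, plus strand), of the large subunit, was at 14.1, 12.9 and 14.03 CPM in siControl and 16.8, 15.5 and 16.7 in siSLC25A1 (log2 fold change 0.25 with SE 0.08, adjusted p 0.0218). When the counts of its processed copies were added, its log2 fold change was -0.07 (adjusted p 0.441), so its direction depends on which rows are read, and its call was also lost without siControl replicate 2 or siSLC25A1 replicate 1 or 3. The count of 43 falls was 28 without siControl replicate 1, 24 without siSLC25A1 replicate 1 and 27 without siSLC25A1 replicate 3, and the count of rises was 0 without siSLC25A1 replicate 3. The median stayed between -0.21 and -0.18 when any 1 library was left out.

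ACLY knockdown also lowered genes of both subunits, and the paralogue RPL22L1 rose. Every siACLY library lay below every siControl library for 42 of 76 genes and above for 2 (25% and 25.5% of all tested genes). Among the largest falls were those of RPLP2, RPL23A, RPL10, RPS12 and RPL12. RPLP2 (ENSG00000177600.9, chr11:809647-812880, plus strand), an acidic protein of the stalk, was at 673, 632 and 651 CPM in siControl and at 504, 493 and 562 in siACLY, a fall to 79.7% of control (log2 fold change -0.33 with SE 0.08, adjusted p 0.00417). RPL10 (ENSG00000147403.18, chrX:154389955-154409168, plus strand), which joins the large subunit late in its maturation, was at 1656, 1667 and 1654 CPM in siControl and at 1313, 1402 and 1367 in siACLY (log2 fold change -0.29 with SE 0.05, adjusted p 1.31e-05). In both genes the lowest control library stood above the highest siACLY library. The replicates of siACLY varied more for RPL23A (ENSG00000198242.14, chr17:28719393-28724359, plus strand), a protein at the exit of the nascent chain tunnel: it was at 260.1, 295 and 291 CPM in siControl and at 226, 249 and 203 in siACLY (log2 fold change -0.32 with SE 0.06, adjusted p 0.000803). RPS12, of the small subunit, fell from 773 ± 17.4 to 637 ± 34.7 CPM (log2 fold change -0.28 with SE 0.06, adjusted p 0.000872). These 5 calls held in all 22 alternative settings.

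The count of 27 in siACLY moved more with the fit than with any siACLY library. It was 50 without siACO1 replicate 3, which is in neither group compared, 48 with only the siControl and siACLY libraries fitted, and 41 with a correction for transcript length. Leaving out any library of siControl or siACLY gave counts no lower than 20.

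ACO1 knockdown gave the largest falls among called ribosomal protein genes, with siACO1 replicate 3 nearest to the controls. In 66 of 76 genes siACO1 replicates 1 and 2 were both below all siControl libraries, in 68 replicate 3 was above both of them, and in 44 replicate 3 reached at least the lowest siControl library. The shares of all tested genes with these patterns are not given here. Replicate 3 was above the mean of replicates 1 and 2 in 71 of the 76 genes. The same held for 718 of 908 other genes with transcripts of at most 1000 bases and for 8143 of 16190 tested genes. All 3 siACO1 libraries lay below all siControl libraries for 30 genes and above for 1 (23.4% and 22.9% of all tested genes). RPL12 was at 1219, 1212 and 1226 CPM in siControl and at 812, 833 and 963 in siACO1. Every siACO1 library was below the controls, and RPL12 fell to 71.3% of control (log2 fold change -0.49 with SE 0.05, adjusted p 1.28e-07; -0.57 without replicate 3, adjusted p 2.19e-14). RPL18 (ENSG00000063177.13, chr19:48615328-48619536, minus strand), of the large subunit, was at 1052, 1042 and 1043 CPM in siControl and 734, 736 and 834 in siACO1 (log2 fold change -0.45 with SE 0.04, adjusted p 1.53e-09; -0.51 without replicate 3, adjusted p 5.07e-16). RPSA (ENSG00000168028.15, chr3:39406689-39412542, plus strand), a small subunit protein also known as a precursor of the laminin receptor, was at 973, 996 and 948 and 692, 692 and 781 CPM (log2 fold change -0.43 with SE 0.04, adjusted p 3.6e-09; -0.49 without replicate 3, adjusted p 5.58e-15). In all 3 genes replicate 3 was the highest siACO1 library and still below each control.

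RPS27A (ENSG00000143947.15, chr2:55231903-55235853, plus strand), made as a fusion of ubiquitin and a small subunit protein, was at 755, 749 and 771 CPM in siControl and 531, 541 and 639 in siACO1 (log2 fold change -0.41 with SE 0.05, adjusted p 7.27e-07; -0.50 without replicate 3, adjusted p 1.4e-14). RPS3 was at 2004, 2069 and 2015 and 1477, 1464 and 1781 CPM (log2 fold change -0.37 with SE 0.05, adjusted p 7.46e-06; -0.47 without replicate 3, adjusted p 1.22e-14). The 5 calls of RPL12, RPL18, RPSA, RPS27A and RPS3 held in all 22 alternative settings.

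The 2 rises in siACO1 were weaker. RPL36A was at 16.9, 17.5 and 15.4 CPM in siACO1, above the controls in all 3 libraries (log2 fold change 0.28 with SE 0.08, adjusted p 0.00571; 0.33 without replicate 3, adjusted p 0.00181), and at -0.02 on the log2 scale (adjusted p 0.799) with its processed copies added. RPS27L (ENSG00000185088.14, chr15:63125872-63158021, minus strand), the paralogue of RPS27 and a target of p53, was at 21.5, 20.8 and 20.2 CPM in siControl and 21.1, 22.7 and 28.5 in siACO1, with replicate 1 inside the control range (log2 fold change 0.21 with SE 0.08, adjusted p 0.0447). Its rise rested on replicate 3: with that library left out the log2 fold change was 0.07 (adjusted p 0.508), and the call held in 10 of 22 settings, being lost also in DESeq2, with a correction for transcript length, with only siControl and siACO1 fitted, and without any 1 library of siControl or siSLC25A1 or siACLY replicate 1 or 2. With a correction for transcript length, 54 of the 76 genes were called lower in siACO1 and 1 higher, with a median of -0.26.

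**Figure D3:**
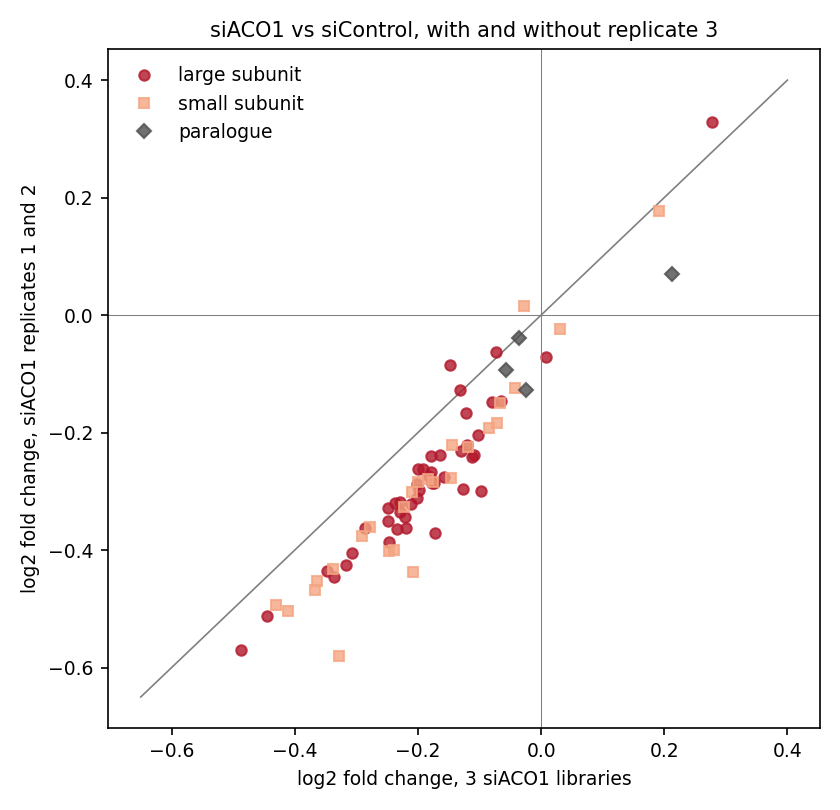
Each point is a tested ribosomal protein gene (RPS2 left out), with its log2 fold change in siACO1 from all 3 libraries on the horizontal axis and from replicates 1 and 2 on the vertical axis; the grey line marks equal values. Nearly all points lie below the line, RPL12 moving from -0.49 to -0.57 and the paralogue RPS27L from 0.21 to 0.07.

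The stalk of the large subunit, built from RPLP0, RPLP1 and RPLP2 on a base that includes RPL12, brings the elongation factors to the ribosome. RPL12 fell in all 3 comparisons, by 0.23 in siSLC25A1, 0.28 in siACLY and 0.49 in siACO1 on the log2 scale. RPLP1 (ENSG00000137818.12, chr15:69452784-69456194, plus strand) was at 833, 815 and 824 CPM in siControl, 716, 734 and 699 in siSLC25A1, 687, 694 and 761 in siACLY and 628, 619.5 and 751 in siACO1. Each knockdown library lay below the controls, and RPLP1 fell in siSLC25A1 (log2 fold change -0.20 with SE 0.06, adjusted p 0.0143), in siACLY (log2 fold change -0.21 with SE 0.06, adjusted p 0.00644) and in siACO1 (log2 fold change -0.31 with SE 0.06, adjusted p 0.000188; -0.41 without replicate 3). RPLP2 was at 560.3, 562 and 515 CPM in siSLC25A1 and 469, 489.5 and 589.6 in siACO1, and fell in both (log2 fold change -0.26 with SE 0.08, adjusted p 0.0312, and log2 fold change -0.34 with SE 0.08, adjusted p 0.00334; -0.45 without replicate 3). RPLP0 (ENSG00000089157.16, chr12:120196686-120201235, minus strand), the scaffold of the stalk and a common reference gene, was at 1787, 1872 and 1815 CPM in siControl, 1719.7, 1751 and 1724 in siSLC25A1, 1569.8, 1643 and 1614 in siACLY and 1554, 1543 and 1737 in siACO1. It fell in siACLY (log2 fold change -0.18 with SE 0.04, adjusted p 0.0011) and siACO1 (log2 fold change -0.18 with SE 0.04, adjusted p 0.00119; -0.24 without replicate 3), and in siSLC25A1 all libraries were below the controls without passing the test (log2 fold change -0.08 with SE 0.04, adjusted p 0.23). The calls of RPLP1 and RPLP2 in siSLC25A1 held in 18 of 22 and 17 of 22 settings, each being lost without siControl replicate 1 or without siSLC25A1 replicate 1 or 3, RPLP2 also without siControl replicate 3 or siSLC25A1 replicate 2, and RPLP1 also with a correction for transcript length (-0.12, adjusted p 0.0634).

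RPL12, RPLP2, RPS12, RPS16 and RPSA were among the genes with the largest mean change of those that passed the test in the same direction in the 3 comparisons, which share their controls. RPS16 was at 903 ± 14.03 CPM in siControl, 722 ± 28.4 in siSLC25A1, 783 ± 33.7 in siACLY and 745 ± 70.7 in siACO1. RPSA was at 972 ± 24.4, 848 ± 15.6, 862 ± 16.2 and 722 ± 51.0 CPM in the same order. RPS16 had its lowest mean in siSLC25A1, within the range of the siACO1 libraries, while RPSA had its lowest in siACO1. The call of RPS12 in siSLC25A1 was lost without siSLC25A1 replicate 1. No tested gene met the rule for genes called in opposite directions in 2 of the comparisons with siControl.

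Several ribosomal proteins are known for roles outside the ribosome or as disease genes, and these followed the general shift unevenly. RPS6, the small subunit protein phosphorylated by the S6 kinases, was at 1069, 1032 and 1060.1 CPM in siControl, 922, 944 and 898 in siSLC25A1, 949.7, 948 and 1037 in siACLY and 859, 874 and 1019 in siACO1. It fell in siSLC25A1 (log2 fold change -0.19 with SE 0.05, adjusted p 0.00738) and siACO1 (log2 fold change -0.20 with SE 0.05, adjusted p 0.00286; -0.28 without replicate 3), and in siACLY it did not pass the test (log2 fold change -0.11 with SE 0.05, adjusted p 0.103). RPS19, the gene first linked to Diamond-Blackfan anaemia, was at 1146 ± 20.3, 962 ± 21.4, 991 ± 35.6 and 937 ± 91.4 CPM in siControl, siSLC25A1, siACLY and siACO1, and fell in each (adjusted p 0.000384, 0.00121 and 2.76e-05; 1.11e-11 for siACO1 without replicate 3). RPL5 and RPL11 form a particle with a small ribosomal RNA that binds the p53 regulator MDM2. RPL5 was at 1088 ± 15.2, 966 ± 17.0, 1007 ± 6.88 and 947 ± 66.8 CPM and fell in all 3 knockdowns (adjusted p 0.00347, 0.0361 and 0.000344; 1.79e-08 for siACO1 without replicate 3), the call in siACLY holding in 14 of 22 settings. RPL11 was at 655 ± 21.9, 585 ± 18.5, 635 ± 44.5 and 562 ± 90.3 CPM and passed in none (adjusted p 0.295, 0.763 and 0.105). With siACO1 replicate 3 left out, RPL11 had a log2 fold change in siACO1 of -0.36 (adjusted p 1.33e-08) against -0.22 with it. The call of RPL5 in siACLY was lost without any 1 of the siControl or siACLY libraries, with library totals in place of scaling factors and when every library had to hold at least 10 counts.

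Some genes with large log2 fold changes had wide errors and did not pass the test. RPS29, of the small subunit, was at 209, 159.7 and 183 CPM in siControl, 133, 154 and 118 in siSLC25A1, 151, 130.2 and 206 in siACLY and 122, 125 and 192 in siACO1, and its differences from control on the log2 scale were -0.44, -0.18 and -0.33, each with an SE of 0.23. RPS27, a small subunit protein with a zinc finger, was at 431, 379.6 and 401 CPM in siControl and 314, 358 and 284 in siSLC25A1 (log2 fold change -0.34 with SE 0.19, adjusted p 0.259). RPL38, of the large subunit, was at 494, 414 and 438 and 364, 401 and 342 CPM in the same groups (log2 fold change -0.28 with SE 0.17, adjusted p 0.306). For these 3 genes siControl replicate 1 was the highest of the controls, every siSLC25A1 library was below the controls, and siACLY replicate 3 and siACO1 replicate 3 were the highest of their groups. RPS29 and RPL38 were chosen after their values were seen.

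**Figure D4:**
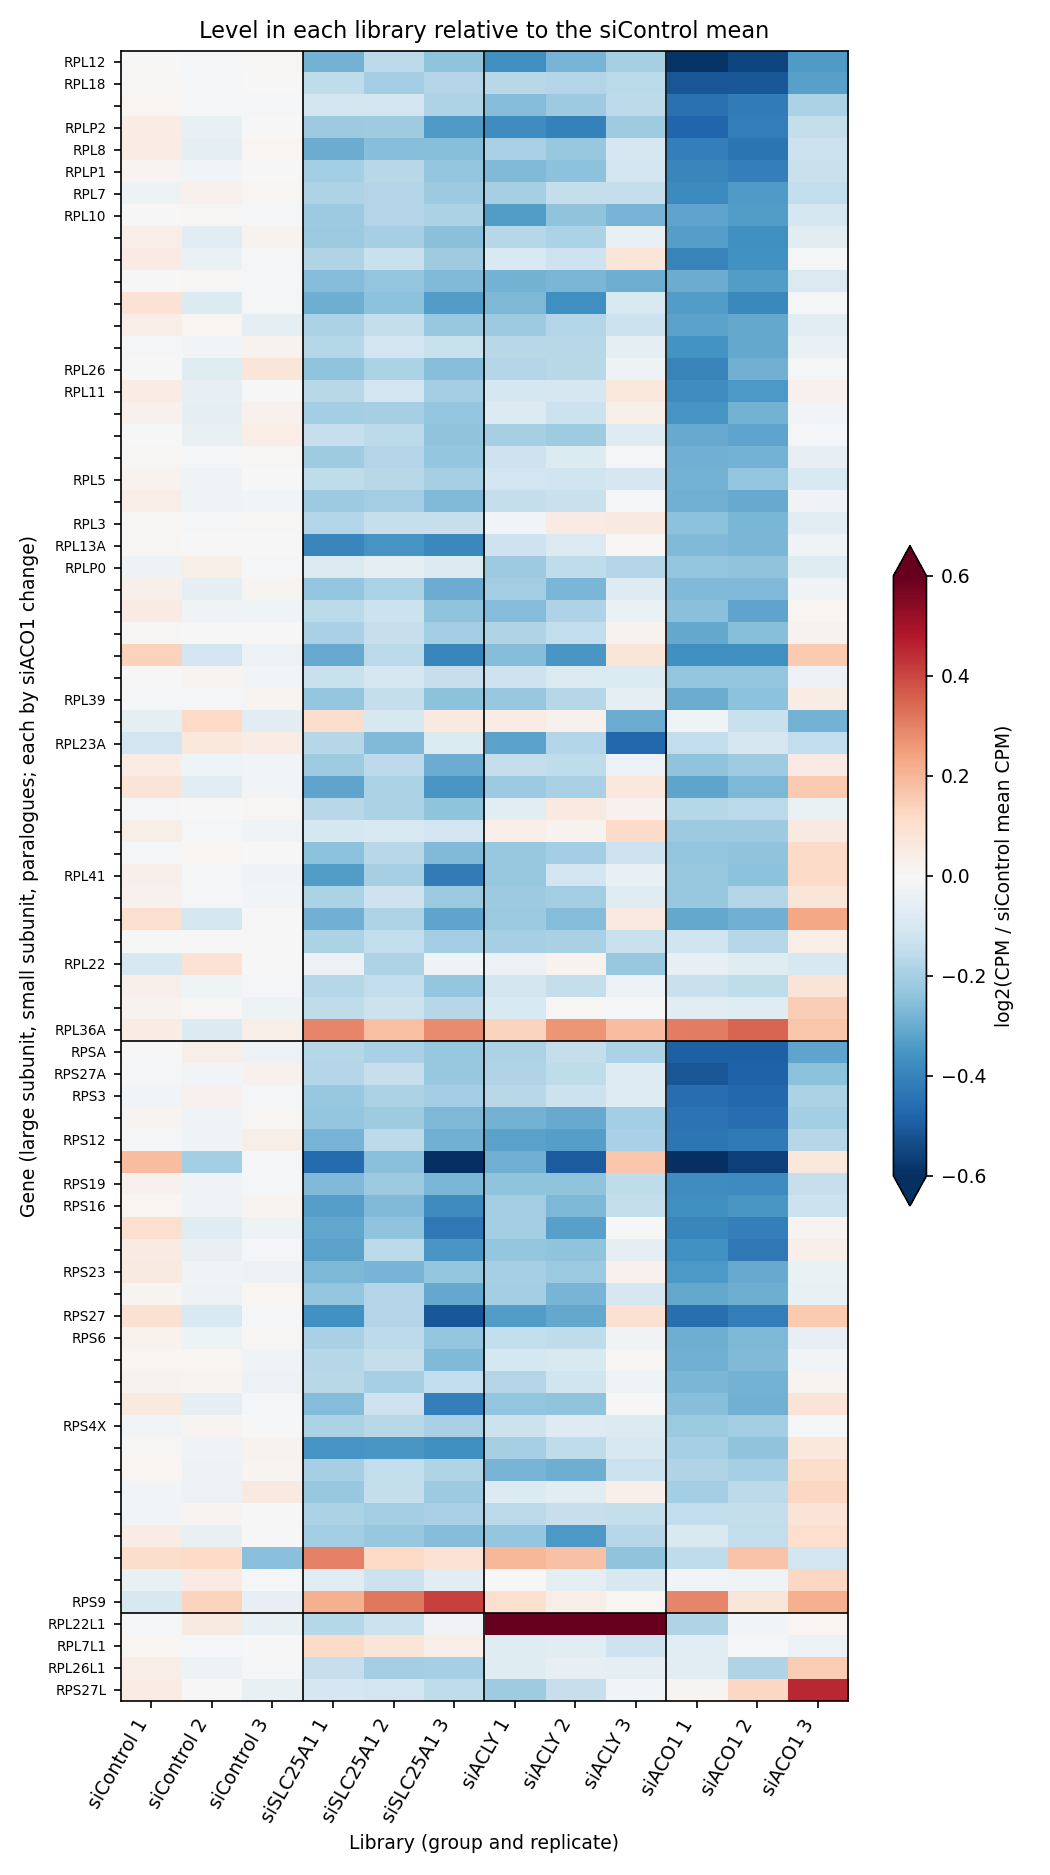
Colours give log2 CPM relative to the siControl mean for each tested ribosomal protein gene (RPS2 left out) in each of the 12 libraries, with blue below and red above control and with only some of the genes named; genes are grouped as large subunit, small subunit and paralogues and ordered by their change in siACO1, and values beyond 0.6 share the end colours. The blue of siACO1 replicates 1 and 2 runs from RPL12 and RPL18 at the top of the large subunit and from RPSA and RPS27A in the small subunit. For most genes, but not all, siACO1 replicate 3 is paler. The siACLY libraries of RPL22L1 are dark red.

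In each comparison with siControl 3 of the 4 tested paralogues had negative values, but not the same 3, and calls went both ways. The positive value was that of RPL7L1 in siSLC25A1, RPL22L1 in siACLY and RPS27L in siACO1. RPL22L1 (ENSG00000163584.18, chr3:170864875-170870483, minus strand), which can replace RPL22 in the ribosome, was at 26.4, 27.7 and 25.9 CPM in siControl, 23.7, 24.4 and 26.3 in siSLC25A1, 53.3, 57.3 and 53.9 in siACLY and 23.6, 26.4 and 26.8 in siACO1. The 3 siACLY libraries stood at about the same level, far above all others, and RPL22L1 rose to 205% of control (log2 fold change 1.04 with SE 0.06, adjusted p 6.79e-14). In siSLC25A1 and siACO1 its libraries overlapped the controls (log2 fold change -0.11 with SE 0.06, adjusted p 0.263, and log2 fold change -0.06 with SE 0.06, adjusted p 0.526; -0.09 without replicate 3, adjusted p 0.294). RPL22 (ENSG00000116251.11, chr1:6185020-6209389, minus strand) was at 136, 155 and 146 CPM in siControl and 142, 148 and 125 in siACLY, with overlapping libraries (log2 fold change -0.08 with SE 0.06, adjusted p 0.323). Both genes have a TOP-like start, as the sequences above show. The rise of RPL22L1 held in all 22 alternative settings, with log2 fold changes from 1.00 to 1.08. It shared 4.08% of its 31-base stretches with transcripts elsewhere and had no named processed copy in the table.

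RPL26L1 was at 54.9, 52.4 and 53.1 CPM in siControl and 48.5, 46.4 and 46.6 in siSLC25A1, where it fell (log2 fold change -0.18 with SE 0.06, adjusted p 0.0354), and its partner RPL26 fell from 99.8 ± 5.07 to 85.3 ± 2.03 CPM (log2 fold change -0.23 with SE 0.08, adjusted p 0.0461). These calls held in 15 of 22 and 13 of 22 settings, and each was lost with a correction for transcript length (-0.12, adjusted p 0.114, and -0.17, adjusted p 0.053) and without siControl replicate 1 or 3 or siSLC25A1 replicate 2 or 3, RPL26L1 also in DESeq2 and without siControl replicate 2, and RPL26 also without siSLC25A1 replicate 1, siACLY replicate 1 or 2 or siACO1 replicate 2. RPL7L1, a paralogue of RPL7 with a role in assembling the large subunit, was at 416, 411 and 412 CPM in siControl, 447, 435 and 425 in siSLC25A1, 392, 394 and 379.5 in siACLY and 395, 411 and 403 in siACO1. Its siSLC25A1 libraries were above and its siACLY libraries below all controls, and neither difference passed the test (log2 fold change 0.08 with SE 0.04, adjusted p 0.159, and log2 fold change -0.09 with SE 0.04, adjusted p 0.0654). RPL7 fell in siSLC25A1, siACLY and siACO1, by 0.19, 0.16 and 0.29 on the log2 scale (-0.36 in siACO1 without replicate 3). RPS27L and RPL7L1 have no TOP-like start, and neither has RPL26L1. RPL39, RPL3 and RPL10 were the partners of the paralogues without counts: RPL39 was at 321 ± 3.48 CPM in siControl and passed in no comparison (adjusted p 0.0599, 0.124 and 0.103; 6.92e-07 for siACO1 without replicate 3), and RPL3, a protein near the peptidyl transferase centre, was at 1803 ± 13.6, 1623 ± 25.1, 1840.2 ± 47.8 and 1579 ± 126 CPM in the 4 groups, falling in siSLC25A1 (adjusted p 0.0135; lost without siControl replicate 1 or 3) and siACO1 (adjusted p 0.000911; -0.26 without replicate 3) but not passing in siACLY (adjusted p 0.644).

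**Figure D5:**
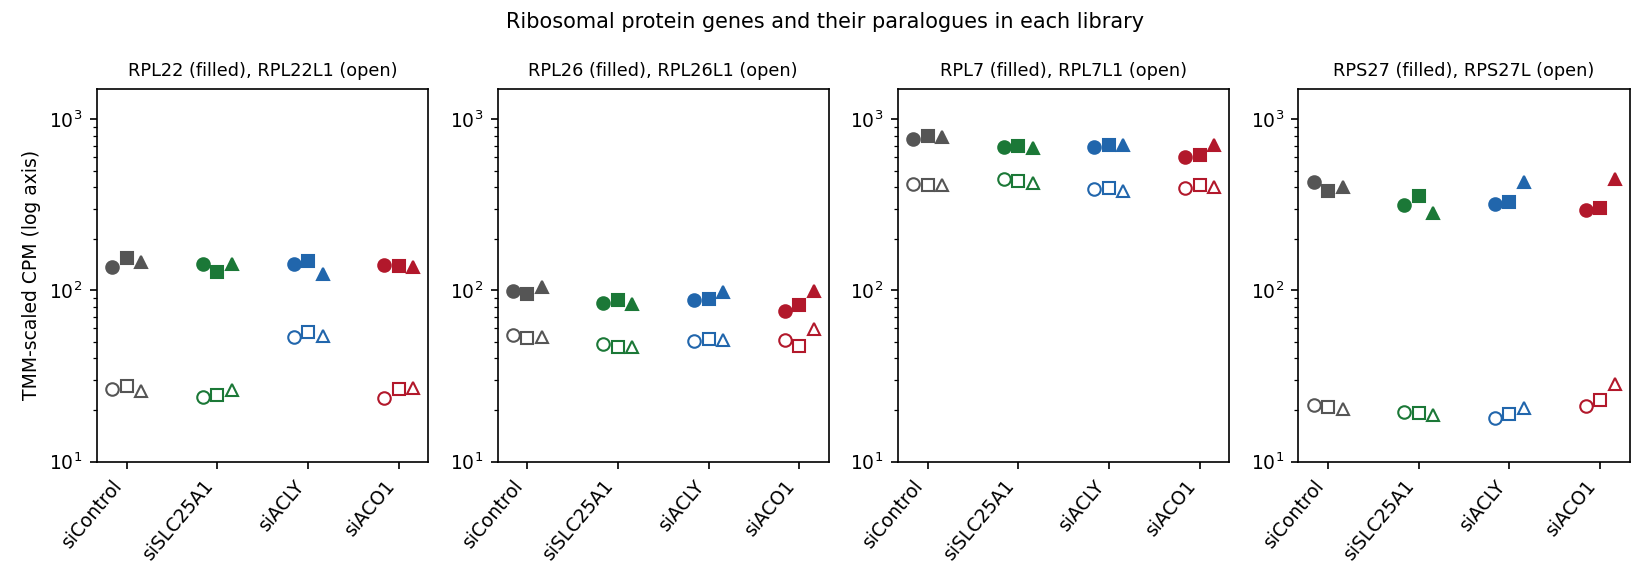
TMM-scaled CPM on a log axis in each library (circle, square and triangle are replicates 1, 2 and 3) for 4 standard genes (filled) and their paralogues (open). RPL22L1 lies between 53.3 and 57.3 CPM in siACLY and between 23.6 and 27.7 elsewhere, while RPL22 overlaps between groups; RPS27L is highest in siACO1 replicate 3 at 28.5.

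Differences between knockdowns were tested directly. Between siSLC25A1 and siACLY 8 of 76 were lower and 1 higher in siSLC25A1 (16.3% and 17.5% of all tested genes, 33.8% together), with a median of -0.06. Among called genes the largest difference was that of RPL22L1 (log2 fold change -1.14 with SE 0.06, adjusted p 2.83e-14). RPL13A was lower in siSLC25A1 than in siACLY (log2 fold change -0.31 with SE 0.05, adjusted p 3.31e-05), as was RPL3 (log2 fold change -0.18 with SE 0.04, adjusted p 0.00178), while RPL7L1 was higher (log2 fold change 0.17 with SE 0.04, adjusted p 0.000931). These 4 differences held in all 22 settings. The counts did not: 24 were lower and 5 higher without siACO1 replicate 3, 20 and 1 with library totals in place of scaling factors, 19 and 3 with only these groups fitted, 16 and 2 without a filter, and 5 and 8 with a correction for transcript length, where the median was 0.01. The count of falls was 5 without siSLC25A1 replicate 1 or 2 or without siACLY replicate 3. With library totals, 3216 of all tested genes were lower and 2237 higher in siSLC25A1.

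Between siSLC25A1 and siACO1, 9 genes were higher and 8 lower in siSLC25A1 (21.8% and 20.3% of all tested genes, 42.1% together), with a median of -0.01. RPL18 (log2 fold change 0.27 with SE 0.04, adjusted p 7.22e-06; 0.33 without siACO1 replicate 3), RPL12 (log2 fold change 0.26 with SE 0.05, adjusted p 0.000376; 0.34 without it), RPSA (log2 fold change 0.23 with SE 0.04, adjusted p 5.79e-05; 0.30 without it) and RPS27A (log2 fold change 0.23 with SE 0.05, adjusted p 0.000778; 0.32 without it) were higher in siSLC25A1 than in siACO1. RPL13A (log2 fold change -0.19 with SE 0.05, adjusted p 0.00307; -0.10 without it) was lower in siSLC25A1. These 5 calls held in all 22 settings, with RPL13A moving most without siACO1 replicate 3 (adjusted p 0.0121), and RPL12 and RPS27A most with a correction for transcript length (0.41 and 0.36). Without siACO1 replicate 3 the split became 30 higher and 4 lower with a median of 0.09, and with a correction for transcript length 29 and 3 with a median of 0.10. With library totals it was 6 higher and 14 lower, so the share of the calls that were higher was 30.0% against 52.9%. Over all tested genes that share was 42.3% with library totals against 51.8%. Without siSLC25A1 replicate 1 or siACO1 replicate 1 the count of higher genes was 5, and without siSLC25A1 replicate 2 or 3 the count of lower genes was 5.

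Between siACLY and siACO1, 12 genes were higher and 3 lower in siACLY (21.4% and 20.7% of all tested genes, 42.1% together), with a median of 0.06. Among called genes the largest difference was that of RPL22L1 (log2 fold change 1.09 with SE 0.06, adjusted p 1.52e-14; 1.12 without siACO1 replicate 3). RPL18 (log2 fold change 0.28 with SE 0.04, adjusted p 4.01e-06; 0.34 without it), RPS27A (log2 fold change 0.28 with SE 0.05, adjusted p 0.000116; 0.36 without it), RPSA (log2 fold change 0.26 with SE 0.04, adjusted p 1.49e-05; 0.31 without it), RPS3 (log2 fold change 0.24 with SE 0.05, adjusted p 0.000666; 0.34 without it) and RPL3 (log2 fold change 0.22 with SE 0.04, adjusted p 0.000151; 0.29 without it) were also higher in siACLY, and RPS27L was lower (log2 fold change -0.34 with SE 0.08, adjusted p 0.00163; -0.20 without siACO1 replicate 3, adjusted p 0.0298). Without siACO1 replicate 3, 42 were higher and 2 lower with a median of 0.15, and with a correction for transcript length 32 and 2. Without siACLY replicate 3, or siACO1 replicate 1 or 2, 7 were higher.

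Genes of both subunits were lower. Of 45 tested genes of the large subunit, 26 fell in siSLC25A1, 16 in siACLY and 24 in siACO1 (38 without replicate 3), with medians of -0.19, -0.13 and -0.18 (-0.29). Of 27 of the small subunit, 16, 11 and 13 (20) fell, with medians of -0.23, -0.15 and -0.21 (-0.30). Whether the subunits differed was not tested. Over all tested genes 9.27%, 18.3% and 19.3% were called lower and 10.3%, 18.4% and 17.8% higher. These shares are of the fit to all 12 libraries and do not apply to the values without siACO1 replicate 3. Of the 66 genes at a mean of at least 100 CPM, 41, 27 and 36 fell and none rose, and all 5 rises were among the 10 tested genes under 100 CPM. With siACO1 replicate 3 left out, 57 of the 66 fell in siACO1 and again none rose. Among the 36 genes without the 20% of overlap or shared stretches, 19, 11 and 16 (27 without siACO1 replicate 3) fell, with medians of -0.21, -0.13 and -0.20 (-0.31), close to those of all tested ribosomal protein genes.

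The 43 tested genes with a TOP-like start had medians of -0.20, -0.13 and -0.20 (-0.32 without siACO1 replicate 3), with 25, 15 and 23 (35) called lower. The 19 with an entry and no such start had medians of -0.18, -0.10 and -0.15 (-0.22), with 10, 2 and 8 (12) called lower. The difference between these sets was not tested. Over all tested genes 9.27%, 18.3% and 19.3% were called lower with all libraries in the fit, and the 2 of 19 in siACLY lay below that share. The counts in brackets come from another fit, to which these shares do not apply. Across the tested ribosomal protein genes, the Spearman correlation of transcript length with the log2 fold change was 0.31 in siSLC25A1, 0.31 in siACLY and 0.03 in siACO1 (0.17 without replicate 3). These correlations run over genes that share the same libraries and are given as a description. Among ribosomal protein genes, shorter transcripts had somewhat lower values in siSLC25A1 and siACLY. Over 15300 other tested genes the correlation was 0.13 in siSLC25A1, -0.03 in siACLY and -0.13 in siACO1. With the correction for transcript length the medians of the ribosomal protein genes were -0.16, -0.15 and -0.26, and their correlations 0.08, 0.31 and 0.21.

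Products that belong to the ribosome but whose symbols the rule does not match moved in the same direction. FAU, a fusion of a ubiquitin-like protein and a small subunit protein, was at 297, 288 and 295 CPM in siControl, 247, 263 and 236 in siSLC25A1, 248, 252 and 265 in siACLY and 224, 224 and 264 in siACO1. All its knockdown libraries were below the controls, and it fell in each (log2 fold change -0.24 with SE 0.05, adjusted p 0.00175; log2 fold change -0.20 with SE 0.05, adjusted p 0.00321; log2 fold change -0.31 with SE 0.05, adjusted p 4.26e-05, and -0.39 without siACO1 replicate 3). RACK1, the signalling scaffold on the small subunit, fell in siSLC25A1 (log2 fold change -0.16 with SE 0.04, adjusted p 0.0085), siACLY (log2 fold change -0.13 with SE 0.04, adjusted p 0.0246) and siACO1 (log2 fold change -0.25 with SE 0.04, adjusted p 4.33e-05; -0.32 without replicate 3).

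Translation factors, several of which also carry TOP starts (13 of 32 with an entry), were called in both directions. Of 35 tested, 9 fell and 3 rose in siSLC25A1 (median -0.06), 6 fell and 2 rose in siACLY (median -0.01), and 25 fell and 1 rose in siACO1 (median -0.18; 28, 0 and -0.21 without replicate 3). With library totals in place of scaling factors the siACLY split was 6 lower and 8 higher. With scaling factors, 9.27%, 18.3% and 19.3% of all tested genes were called lower, against 25.7%, 17.1% and 71.4% of the translation factors. Called higher with them were 10.3%, 18.4% and 17.8% of all tested genes. With library totals, 2293 of all tested genes were lower and 3584 higher in siACLY. PABPC1, the poly(A)-binding protein and a TOP transcript, fell by 0.25 in siSLC25A1 and 0.33 in siACLY on the log2 scale (adjusted p 1.04e-05 and 3.42e-08). EIF4B fell in siSLC25A1 (log2 fold change -0.20 with SE 0.04, adjusted p 0.000132), while EIF4G2 and EIF5 rose there (adjusted p 0.000373 and 0.00789). In siACLY the helicase EIF4A2 rose (log2 fold change 0.33 with SE 0.04, adjusted p 6.56e-08), as did EIF1 (log2 fold change 0.24 with SE 0.05, adjusted p 0.000137), and EIF3C fell (log2 fold change -0.22 with SE 0.06, adjusted p 0.00202). In siACO1 the largest falls were those of EIF3C (log2 fold change -0.41 with SE 0.06, adjusted p 1.29e-06; -0.37 without replicate 3) and EIF2S3 (log2 fold change -0.39 with SE 0.04, adjusted p 1.22e-09; -0.40 without replicate 3), and EIF5B rose (log2 fold change 0.12 with SE 0.04, adjusted p 0.0225; 0.08 without replicate 3, adjusted p 0.07).

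Ribosome assembly factors, which process ribosomal RNA and mature the subunits, were lower in siACO1 and mixed in the other knockdowns. Of 43 tested, 33 fell and none rose in siACO1 (median -0.20; 38, 0 and -0.21 without replicate 3), against 3 falls and 6 rises in siSLC25A1 (median 0.02) and 10 falls and 6 rises in siACLY (median -0.04). With library totals the siACO1 split was 24 lower and 1 higher and the siACLY split 5 lower and 11 higher. The shares called lower were 6.98%, 23.3% and 76.7% in siSLC25A1, siACLY and siACO1, against 9.27%, 18.3% and 19.3% of all tested genes. Called higher were 10.3%, 18.4% and 17.8% of all tested genes. These shares are of the fit with scaling factors. With library totals, 2443 of all tested genes were lower and 3580 higher in siACO1. In siACLY 2293 were lower and 3584 higher, so the whole table moved upward there too. PPAN, a factor of large subunit maturation, was at 25.6, 24.7 and 24.7 CPM in siControl, 19.4, 22.6 and 20.5 in siSLC25A1, 18.0, 16.9 and 17.8 in siACLY and 14.6, 13.1 and 14.4 in siACO1. Each knockdown lowered it, siACO1 most (log2 fold change -0.83 with SE 0.07, adjusted p 3.22e-10; -0.86 without replicate 3). UTP20, of the small subunit processome, rose in siSLC25A1 (log2 fold change 0.27 with SE 0.05, adjusted p 0.000104) and fell in siACO1 (log2 fold change -0.44 with SE 0.05, adjusted p 3.47e-08; -0.38 without replicate 3). NHP2 fell in siSLC25A1 (log2 fold change -0.23 with SE 0.05, adjusted p 0.00256), GRWD1 fell in siACLY (log2 fold change -0.39 with SE 0.05, adjusted p 3.44e-07) and NOB1 rose there (log2 fold change 0.27 with SE 0.04, adjusted p 1.7e-05). EFL1, which helps release the large subunit for translation, rose in siSLC25A1 (log2 fold change 0.27 with SE 0.06, adjusted p 0.0022) and siACLY (log2 fold change 0.37 with SE 0.06, adjusted p 1.87e-05).

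Of 19 tested genes of RNA polymerase I and its factors, 4 fell and none rose in siSLC25A1, 6 fell and 1 rose in siACLY, and 7 fell and 1 rose in siACO1 (8 and none without replicate 3, 4 and 1 with library totals). The shares called lower were 21.1%, 31.6% and 36.8%, against 9.27%, 18.3% and 19.3% of all tested genes, of which 10.3%, 18.4% and 17.8% were called higher. With library totals, 2443 of all tested genes were lower and 3580 higher in siACO1. UBTF, the factor that opens ribosomal DNA for transcription, was at 172, 171 and 173 CPM in siControl, 142, 136 and 131 in siSLC25A1, 113, 113 and 111 in siACLY and 145, 145 and 135 in siACO1. No knockdown library reached the controls, and it fell in siSLC25A1 (log2 fold change -0.34 with SE 0.04, adjusted p 5.56e-07) and most in siACLY (log2 fold change -0.62 with SE 0.04, adjusted p 2.04e-12). POLR2E, a subunit shared by the nuclear polymerases, fell in siSLC25A1 (log2 fold change -0.26 with SE 0.04, adjusted p 6.73e-05) and rose in siACO1 (log2 fold change 0.12 with SE 0.04, adjusted p 0.0295; 0.08 without replicate 3, adjusted p 0.102). POLR1E fell in siACO1 (log2 fold change -0.50 with SE 0.06, adjusted p 5.26e-08; -0.51 without replicate 3), and POLR1G fell in siACLY (log2 fold change -0.41 with SE 0.08, adjusted p 0.000214) and siACO1 (log2 fold change -0.41 with SE 0.08, adjusted p 0.000236; -0.45 without replicate 3). TAF1B rose in siACLY (log2 fold change 0.21 with SE 0.07, adjusted p 0.0199).

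Genes that control ribosomal protein synthesis were called in both directions. Of 18 tested, 1 rose and 1 fell in siSLC25A1, 2 rose and 5 fell in siACLY (4 and 4 with library totals), and 4 rose and 5 fell in siACO1 (4 and 4 of 19 tested without replicate 3, 4 and 3 with library totals). The shares called lower were 5.56%, 27.8% and 27.8% and those called higher 5.56%, 11.1% and 22.2%, against 9.27%, 18.3% and 19.3% lower and 10.3%, 18.4% and 17.8% higher over all tested genes. Library totals gave 2293 lower and 3584 higher of all tested genes in siACLY, and 2443 and 3580 in siACO1. LARP1, which binds TOP starts, was at 555, 557 and 569 CPM in siControl and 625, 634 and 645 in siSLC25A1, where it rose (log2 fold change 0.18 with SE 0.04, adjusted p 0.00291), and the kinase RPS6KB2 fell (log2 fold change -0.27 with SE 0.05, adjusted p 0.000354). In siACLY TSC1 rose (log2 fold change 0.23 with SE 0.05, adjusted p 0.000218), EIF2AK4 rose (log2 fold change 0.11 with SE 0.04, adjusted p 0.0405), and RPTOR (log2 fold change -0.24 with SE 0.05, adjusted p 0.000346) and the p53 regulator MDM4 (log2 fold change -0.23 with SE 0.06, adjusted p 0.00337) fell. In siACO1 EIF4EBP1, the translation repressor that mTORC1 switches off, fell (log2 fold change -0.56 with SE 0.06, adjusted p 2.01e-08; -0.65 without replicate 3), as did ZNF598, a ubiquitin ligase that senses collided ribosomes (log2 fold change -0.35 with SE 0.10, adjusted p 0.00914; -0.31 without replicate 3, adjusted p 0.0345). EIF4EBP2 (log2 fold change 0.26 with SE 0.04, adjusted p 5.14e-06; 0.28 without replicate 3) and RHEB (log2 fold change 0.19 with SE 0.05, adjusted p 0.00221; 0.14 without replicate 3, adjusted p 0.011) rose. MYC, which drives ribosomal protein transcription, was at 305 ± 9.92, 306 ± 5.51, 304 ± 6.79 and 298 ± 10.9 CPM in the 4 groups and passed in none (adjusted p 0.972, 0.936 and 0.5), a gene named after its values were seen.

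The genes of mitochondrial ribosomal proteins, a separate family with transcripts that mostly lack the motif, had medians nearer to 0. Of 73 tested, 12 fell and 1 rose in siSLC25A1 (median -0.08), 15 fell and 7 rose in siACLY (median -0.06; 9 and 11 with library totals), and 18 fell and 7 rose in siACO1 (median -0.05; 32, 7 and -0.12 without replicate 3; 15 and 10 with library totals). The shares called lower, 16.4%, 20.5% and 24.7%, stood against 9.27%, 18.3% and 19.3% of all tested genes, so that those in siACLY and siACO1 were near the background. Of all tested genes 10.3%, 18.4% and 17.8% were called higher. Library totals gave 2293 lower and 3584 higher of all tested genes in siACLY, and 2443 and 3580 in siACO1. In siSLC25A1 MRPS9 fell (log2 fold change -0.29 with SE 0.06, adjusted p 0.00123) and MRPL17 rose (log2 fold change 0.32 with SE 0.07, adjusted p 0.00119). In siACLY MRPS34 fell (log2 fold change -0.50 with SE 0.07, adjusted p 7.7e-06) and MRPL54 rose (log2 fold change 0.41 with SE 0.08, adjusted p 0.000115). In siACO1 MRPL42 fell (log2 fold change -0.54 with SE 0.05, adjusted p 3.59e-09; -0.59 without replicate 3) and MRPS6 rose (log2 fold change 0.51 with SE 0.08, adjusted p 0.000118; 0.37 without replicate 3, adjusted p 6.4e-08). Beside these counts stand those of the cytosolic family, 43, 27 and 37 of 76, and the difference between the families was not tested.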

How the data were processed

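Poly(A) RNA of 12 libraries was measured by sequencing. The authors deposited 1 table of whole-number read counts per Ensembl gene, with no normalization per the file headers and values. The submitters' processing notes name CASAVA, FastQC, Trim Galore, STAR 2.7.0e, DESeq2, GRCm39 and GRCh38 without roles; the counting tool, its use of strand and the annotation are not given in the sources used here. Of 70116 identifiers, 62700 (89.4%) matched a symbol. Counts were filtered with edgeR 4.0.16 (R 4.3.3), scaled with TMM factors and fitted over the 4 groups with its quasi-likelihood test (8 residual degrees of freedom). P-values were Benjamini-Hochberg adjusted over 16197 genes, and CPM values are TMM-scaled. The fit was tested on simulated data. Alternatives were other scalings, DESeq2 1.42.0, other filters, only the groups compared, a replicate block, offsets for transcript length, processed copies added, a minimum log2 fold change of 0.2, and the omission of each library. Genes were named if they had the 6 largest rises or falls among called genes of at least 1 CPM in a comparison with siControl, the 6 largest mean changes among genes called alike in the 3 comparisons, opposite calls in 2 of them, or were listed for roles beyond the ribosome, as paralogue pairs or as the largest 2 calls of a list. The members and lists were chosen with earlier results of these data known. Sequences and start annotation are from RefSeq on GRCh38.p14. Some genes that the rule names are not reported here.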

Additional observations from a re-analysis of the deposited data

Results flagged for a closer look

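The test of the difference between knockdowns singled out the paralogue RPL22L1 among the ribosomal protein genes. It was lower in siSLC25A1 than in siACLY, with a log2 difference of -1.14, and higher in siACLY than in siACO1, with a log2 difference of 1.09.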

How the results depend on the processing

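Over the named genes and 22 alternatives, 4298 values kept their sign and side of the threshold, 175 lost a call in the same direction, 175 gained one, and 104 changed sign. Of the sign changes, 101 were not called under either setting, and 3 ended a call or made one: with processed copies added RPL36A was at -0.070 in siSLC25A1 and -0.022 in siACO1, and with transcript length offsets RPS16 was 0.11 higher in siSLC25A1 than in siACO1. A minimum log2 fold change of 0.2 left out 34 of the 98 calls of named genes. The cause was not tested.

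For siSLC25A1 against siControl, the higher count was 1 with DESeq2, no filter or processed copies, and the lower count 23 with a minimum log2 fold change of 0.2. With 1 library left out, the counts ran from 0 to 2 higher and 24 to 59 lower, with medians from -0.21 to -0.18. For siACLY, the higher count was 2 with library totals, at least 10 counts, only the groups compared or processed copies, and the lower count 48 with only the groups compared, 41 with length offsets and 13 with the minimum fold change. Omitting 1 library gave 1 to 2 higher and 20 to 50 lower, with medians from -0.18 to -0.12. For siACO1, the higher count was 1 with DESeq2, only the groups compared, length offsets or processed copies, and the median -0.26 with length offsets. Each library left out in turn, it was 1 to 2 higher and 28 to 58 lower, with medians from -0.29 to -0.14.

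For siSLC25A1 against siACLY, the higher count was 2 with median-of-ratios factors, TMM factors without the ribosomal protein genes, no filter or a replicate block, 3 with DESeq2 or only the groups compared, 8 with length offsets and 0 with the minimum fold change. The lower count was 20 with library totals, 16 with no filter, 19 with only the groups compared, 5 with length offsets and 4 with the minimum fold change, and the median turned to 0.015 with length offsets. Omitting 1 library gave 1 to 5 higher and 5 to 24 lower, with medians from -0.08 to -0.02. For siSLC25A1 against siACO1, the higher count was 5 with only the groups compared, 29 with length offsets and 5 with the minimum fold change, and the lower count 14 with library totals, 5 with only the groups compared, 3 with length offsets and 2 with the minimum fold change. The median turned to 0.10 with length offsets and 0.090 without siACO1 replicate 3. With 1 library left out, it was 5 to 30 higher and 4 to 11 lower, with medians from -0.062 to 0.090. For siACLY against siACO1, the higher count was 32 with length offsets and 7 with the minimum fold change, and the lower count 5 with library totals. With 1 library left out, it was 7 to 42 higher and 2 to 4 lower, with medians from 0.0065 to 0.15.

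The control share was 5.65% with processed copies included. Across these omissions, mean shares ran from 5.52% to 5.57% in siControl, 4.77% to 4.85% in siSLC25A1, 5.10% to 5.27% in siACLY and 4.73% to 5.10% in siACO1. The labels do not say whether same-numbered libraries were made together, and the main fit did not use the numbers. Deviations of same-numbered libraries correlated between -0.034 and 0.067, which does not settle it. With a replicate block, 50 genes were lower and 2 higher in siSLC25A1, 34 and 1 in siACLY and 42 and 2 in siACO1. With few counts, such as the 82 of RPS2, no difference was detectable.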
